A study of Drosophila melanogaster with 22 samples.

Results

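The SoxB genes of Drosophila are SoxN (SoxNeuro), D (Dichaete), Sox21a and Sox21b. The rows with exactly these symbols were read from the gene tables, which gave all 4 members among 15339 genes. SoxB proteins are transcription factors that bind and bend DNA through an HMG box. In the fly embryo, SoxN and D act partly in place of each other when the neuroblasts, the stem cells of the central nervous system, form. In the larval brain, D is known as a member of the temporal series of the optic lobe neuroblasts and of the intermediate progenitors that type II neuroblasts produce. Sox21a is best known from the adult midgut, where it promotes the differentiation of stem cell daughters.

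The libraries, 22 in 8 groups, were made from GFP-labelled cells that a robotic sorter took from larval brains. Mushroom body neuroblasts make up 3 groups of 3 libraries each, which carry the labels of a 2 h wait, of 3 washes, or of neither. Antennal lobe neuroblasts, type II neuroblasts and a pool of neuroblasts of all lineages have 3 libraries each. Neurons and glia have 2 libraries each. All neuroblasts were taken at 50 h after larval hatching, whereas wandering larvae supplied the neurons and glia, so cell type and stage cannot be told apart in a comparison of neuroblasts with either. Brains of 30 larvae were dissected, larvae were raised at 25 °C, and a library held 47 to 124 cells. The sources used here do not give the driver of the GFP label, the fly genotypes or the conditions of the wait and the washes. Nothing states that the libraries of a group came from separate flies, so p-values measure the spread between these libraries, which may be technical.

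Libraries held 3150371 to 14282246 counts in genes and 8958 to 11779 detected genes. Replicates correlated at 0.934 to 0.967 within neuroblast groups, while the pair of neuron libraries gave 0.824 and the pair of glia libraries 0.772, on log2(CPM + 1) over genes with a mean above 1 CPM. CPM here are counts relative to library size after TMM scaling over all 22 libraries. The summed mushroom body markers (ey, toy, retn, Rx) reached 690 to 885 CPM in mushroom body neuroblasts, against 118 to 173 CPM in the pool. Of these retn averaged 511 CPM in mushroom body neuroblasts, while toy was lower there, at 53.5 to 64.5 CPM, against 69.1 to 85.6 CPM in the pool. The summed type II markers (pnt, btd, Sp1) reached 845 to 1036 CPM in type II neuroblasts, against 105 to 155 CPM in the pool, and antennal lobe markers (ems, mid, acj6, Dr) reached 304 to 402 CPM in antennal lobe neuroblasts, against 26.4 to 43.8 CPM in the pool. Of these acj6 averaged only 6.58 CPM in antennal lobe neuroblasts. Summed neuroblast markers (dpn, wor, mira, insc, klu, CycB3, mud) were 3162 to 4099 CPM in the pool, against 8.52 and 20.6 CPM in neurons and 276 and 635 CPM in glia. Summed glia markers (repo, Gs2, wrapper, moody, nrv2, alrm, Eaat1) were 2918 and 2062 CPM in glia, against 418 to 500 CPM in the pool. Of these nrv2 and Eaat1 went the other way. In glia they averaged 144 and 157 CPM, uneven between the libraries, against 239 and 206 CPM in the pool. Summed fat body markers (Lsp2, Rfabg, Fbp1) were 28.0 to 29.8 CPM in the pool, against 2036 and 6480 CPM in glia. Nearly all of the fat body sum in glia was Rfabg (2036 and 6477 CPM), with Lsp2 at 0 and Fbp1 at 0 to 2.33 CPM. These are bulk libraries, so fewer cells of a type and less RNA per cell cannot be told apart.

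SoxN lies on chromosome 2L at 8825625 to 8829670 on the plus strand (FBgn0029123, build dm3, from the authors' annotation). D (FBgn0000411, 14169026 to 14170637), Sox21a (FBgn0036411, 14096581 to 14101218) and Sox21b (FBgn0042630, 14105505 to 14124397) lie together on the minus strand of chromosome 3L. The 3 genes of this cluster span 74057 bases with no other annotated gene between them. Sox21a and Sox21b are 4286 bases apart, and D stands 44628 bases beyond Sox21b. No annotated gene overlaps any of the 4, so their counts cannot come from an overlapping partner, although reads from stretches that SoxB genes share were not separated here.

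SoxN was high in antennal lobe neuroblasts, type II neuroblasts, the pool and glia, and close to the detection limit in mushroom body neuroblasts. Its level was 502.9, 504 and 471 CPM in antennal lobe neuroblasts, 332, 443 and 376 CPM in type II neuroblasts, and 316, 248 and 249 CPM in the pool. It was 59.2 and 149 CPM in neurons and 566 and 638 CPM in glia. In mushroom body neuroblasts it was 1.69, 0.943 and 3.20 CPM, from 6, 4 and 14 counts. Every mushroom body library lay below every library of the other lineages, the pool, neurons and glia.

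The level of D followed another order. It was 217, 363 and 284 CPM in antennal lobe neuroblasts, 60.0, 79.3 and 108.5 CPM in type II neuroblasts, and 105.5, 97.8 and 97.6 CPM in the pool. Neurons had 35.0 and 16.0 CPM, glia 5.27 and 3.50 CPM, and mushroom body neuroblasts 7.62, 6.60 and 5.95 CPM. D was thus highest in antennal lobe neuroblasts, at an intermediate level in type II neuroblasts and the pool, whose libraries overlap, and low in both glia and mushroom body neuroblasts.

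**Figure D1:**
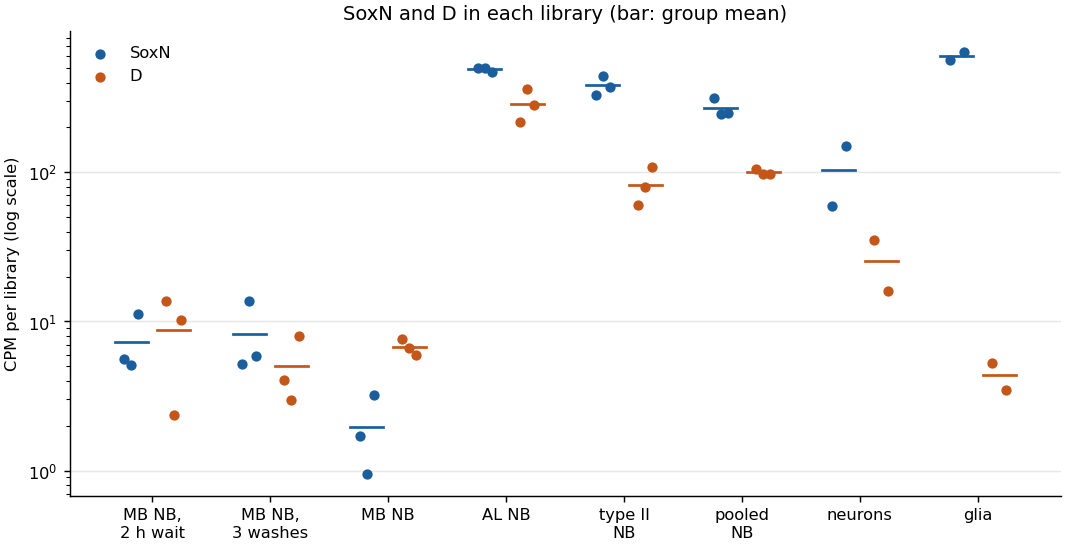
SoxN (blue) and D (orange) in each library, in CPM on a log axis, with the mean of each group as a bar; NB is neuroblast, MB mushroom body and AL antennal lobe. SoxN averages 1.95 CPM in MB neuroblasts and 602 CPM in glia, while D averages 6.72 CPM in MB neuroblasts and 4.38 CPM in glia.

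In mushroom body neuroblasts, SoxN and D both fell against each of the other neuroblast groups. SoxN averaged 1.95 ± 1.15 CPM in mushroom body neuroblasts and 493 ± 18.8 CPM in antennal lobe neuroblasts (SD, n = 3 each). SoxN thus changed by -7.94 ± 0.25 on the log2 scale (SE; edgeR quasi-likelihood test with Benjamini-Hochberg adjustment, adjusted p = 2.19e-17), or 245-fold lower. D averaged 6.72 ± 0.842 CPM in mushroom body neuroblasts and 288 ± 73.1 CPM in antennal lobe neuroblasts, a log2 change of -5.41 ± 0.26 (edgeR adjusted p = 5.17e-14), or 42.5-fold lower. Both of the members that passed the filter on low counts were called, where 11.8% of the 9249 genes tested were called, 5.88% higher and 5.96% lower. By p-value SoxN ranked 1 and D ranked 5 of those genes. The summed neuroblast markers stood at 2992 to 3369 CPM in mushroom body neuroblasts and 4173 to 4499 CPM in antennal lobe neuroblasts, and their part in the result was not tested.

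Against type II neuroblasts, the change of SoxN in mushroom body neuroblasts was -7.58 ± 0.25 on the log2 scale (edgeR adjusted p = 2.97e-17) and that of D was -3.60 ± 0.25 (edgeR adjusted p = 1.56e-10), in a comparison in which 10.4% of genes were called, 5.63% higher and 4.72% lower. Against the pool, SoxN changed by -7.06 ± 0.25 (edgeR adjusted p = 2.74e-16) and D by -3.87 ± 0.25 (edgeR adjusted p = 6.16e-11), with 14.4% of genes called, 8.92% higher and 5.46% lower. The 3 comparisons share the mushroom body libraries, so they are not independent of each other. In each of them both calls held under all 15 alternatives, and the log2 change of SoxN lay between -9.01 and -6.32. In the pool, summed neuroblast markers ranged from 3162 to 4099 CPM, which overlaps the mushroom body range.

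Antennal lobe neuroblasts had the highest D of all groups. Against type II neuroblasts, D rose by 1.80 ± 0.20 on the log2 scale (edgeR adjusted p = 1.21e-06), or 3.49-fold, and all 3 antennal lobe libraries lay above all 3 type II libraries. SoxN in the same comparison differed by 0.36 ± 0.16 (edgeR adjusted p = 0.158), which missed the threshold, where 11.4% of genes were called, 6.08% higher and 5.34% lower. Against the pool, both genes rose in antennal lobe neuroblasts, D by 1.54 ± 0.20 (edgeR adjusted p = 1.69e-05) and SoxN by 0.88 ± 0.16 (edgeR adjusted p = 0.000619), with 17.0% of genes called, 10.0% higher and 7.02% lower. With ERCC counts per cell as the scale, neither rise against the pool passed: the adjusted p was 0.0597 for D and 0.442 for SoxN, at log2 changes of 1.24 and 0.59. On that scale D against type II neuroblasts was at 0.84 with an adjusted p of 0.0964. The same scale moved the median of all genes to -0.28 against the pool and -1.06 against type II neuroblasts. The rise of SoxN against the pool was also lost with all 22 libraries in a single fit (adjusted p = 0.165) and with limma on log2(TPM + 0.1) (adjusted p = 0.0753).

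Type II neuroblasts make intermediate progenitors, a setting in which D is known as a temporal factor. In type II neuroblasts D averaged 82.6 ± 24.4 CPM, against 100 ± 4.54 CPM in the pool (SD, n = 3 each), a difference of -0.27 ± 0.20 on the log2 scale (edgeR adjusted p = 0.514). SoxN averaged 384 ± 56.0 CPM in type II neuroblasts and 271 ± 38.8 CPM in the pool, a difference of 0.52 ± 0.16 (edgeR adjusted p = 0.0585), in a comparison in which 5.92% of genes were called, 3.72% higher and 2.21% lower. SoxN missed the threshold here although the libraries of the groups did not overlap, and it passed under 4 of 15 alternatives, with adjusted p of 0.0186 in DESeq2, 0.0327 with ERCC counts per cell, 0.0383 without the filter on low counts and 0.0259 without pool library 1. The summed markers of intermediate progenitors (erm, opa, ham) were 0.646 to 5.57 CPM in type II neuroblasts and 59.7 to 104 CPM in the pool. This sum was higher still in mushroom body neuroblasts, at 209 to 270 CPM, where opa alone averaged 237 CPM. In the pool opa averaged 38.8 CPM. The content of intermediate progenitors in these groups was not tested.

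SoxN and D were both lower in neurons than in pooled neuroblasts. In the pool SoxN averaged 271 ± 38.8 CPM (SD, n = 3), against 59.2 and 149 CPM in the 2 neuron libraries, a log2 change of 1.35 ± 0.40 (edgeR adjusted p = 0.0395). D averaged 100 ± 4.54 CPM in the pool, against 35.0 and 16.0 CPM in neurons, a log2 change of 1.94 ± 0.62 (edgeR adjusted p = 0.0493). In this comparison 24.7% of 9855 genes were called, 10.2% higher and 14.5% lower in the pool, and both values lie close to the threshold. SoxN lost its call in 8 of 14 alternatives, with adjusted p up to 0.137: on leaving out pool library 1, 2 or 3 or neuron library 1, and with RLE scaling, DESeq2, the replicate block and limma on log2(TPM + 0.1). D lost its call in 7 of 14, with adjusted p up to 0.192: on leaving out pool library 1, 2 or 3 or neuron library 2, and with RLE scaling, the replicate block and no filter on low counts. Without neuron library 1 the change of SoxN was 0.81. Summed neuron markers were 166 to 244 CPM in the pool, against 17308 and 17918 CPM in neurons.

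In glia, SoxN and D went opposite ways relative to neurons. Neurons had 104 ± 63.8 CPM of SoxN and glia 602 ± 51.2 CPM (SD, n = 2 each), a log2 change of -2.54 ± 0.45 (edgeR adjusted p = 0.00588). Neurons had 25.5 ± 13.4 CPM of D and glia 4.38 ± 1.25 CPM, a log2 change of 2.54 ± 0.68 (edgeR adjusted p = 0.0307), with 20.1% of genes called, 9.37% higher and 10.8% lower. The call of D ended without glia library 2 (adjusted p = 0.0667), without neuron library 1 (adjusted p = 0.0543) and with the replicate block (adjusted p = 0.128). The call of SoxN ended with ERCC counts per cell (-0.87, adjusted p = 0.146).

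D was also higher in the pool than in glia, by 4.48 ± 0.71 on the log2 scale (edgeR adjusted p = 0.00321), or 22.4-fold, with 20.6% of genes called, 7.00% higher and 13.6% lower, and this call held in all 14 alternatives. SoxN differed between the pool and glia by -1.19 ± 0.38 (edgeR adjusted p = 0.0567). That difference missed the threshold. With glia higher, it passed in 4 of 14 alternatives: all 22 libraries in a single fit (-1.26, adjusted p = 0.0101), DESeq2 (-1.35, adjusted p = 0.0248), RLE scaling (-1.35, adjusted p = 0.0423) and no filter on low counts (-1.14, adjusted p = 0.0477). The direction turned under ERCC counts per cell alone, with which the pool was higher by 2.35 (edgeR adjusted p = 0.00158). The same change of scale moved the median of all genes to 3.45 in this comparison. Relative to that median SoxN stood lower in the pool than in glia on both scales. Expressed as ERCC-scaled counts per cell with the mean of the pool set to 1, SoxN was 0.196 in glia, 0.107 in neurons and 0.00462 in mushroom body neuroblasts. Summed neuroblast markers were 3162 to 4099 CPM in the pool, against 276 and 635 CPM in glia, and their part in the result was not tested.

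**Figure D2:**
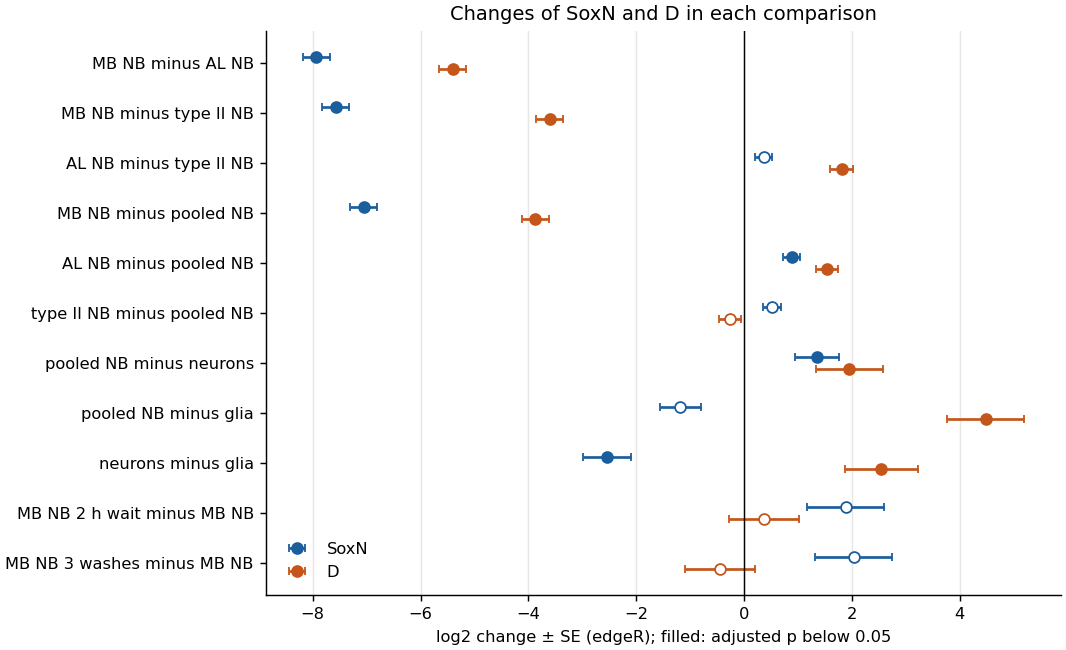
Log2 change of SoxN (blue) and D (orange) in each of the 11 comparisons, the first-named group minus the second, with the SE from edgeR as a horizontal bar; filled points have an adjusted p below 0.05. The fall in MB neuroblasts reaches -7.94 for SoxN and -5.41 for D against AL neuroblasts, and in pooled neuroblasts against glia the points of the genes lie on opposite sides of 0.

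Levels can be set against each other between genes in TPM, which divides by gene length. The ratio of SoxN to D within a library does not depend on the scaling between libraries. It was 0.161, 0.104 and 0.391 in mushroom body neuroblasts, where it rests on 6, 4 and 14 counts of SoxN. In the mushroom body groups it was 0.294, 1.55 and 0.801 after the wait and 0.937, 3.30 and 0.534 after the washes, so D did not exceed SoxN in every mushroom body library. The ratio was 1.68, 1.01 and 1.20 in antennal lobe neuroblasts, 4.01, 4.06 and 2.52 in type II neuroblasts, and 2.17, 1.84 and 1.85 in the pool. Neurons had 1.23 and 6.77, and glia 77.9 and 132. The 4 neuroblast groups without a wait or washes did not overlap each other in this ratio.

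A two-sided exact permutation test on the log2 ratio cannot go below p = 0.10 with 3 libraries against 3, and all 6 comparisons of these neuroblast groups gave p = 0.10 (Benjamini-Hochberg adjusted over 11 comparisons, 0.138). The mean difference in the log2 ratio was -4.21 between mushroom body and type II neuroblasts and -1.44 between antennal lobe and type II neuroblasts. Between the pool and glia it was -5.70 (exact permutation p = 0.10, the smallest possible with 3 against 2). Against mushroom body neuroblasts without either treatment, it was 2.66 after the washes, with no overlap of the ranges (exact permutation p = 0.10), and 1.94 after the wait, with overlapping ranges (exact permutation p = 0.20). SoxN made up 16.7 ± 9.59% of the summed TPM of the 4 SoxB genes in mushroom body neuroblasts, 55.5 ± 6.45% in antennal lobe neuroblasts, 77.2 ± 4.90% in type II neuroblasts and 66.0 ± 2.08% in the pool (SD, n = 3 each). In the handled mushroom body libraries it averaged 40.7% after the wait (22.5 to 60.9%) and 51.7% after the washes (34.8 to 73.8%; range, n = 3 each). In glia it was 98.3 and 99.2% of the sum. The sum was 7.16 ± 0.689 TPM in mushroom body neuroblasts, against 550 ± 75.4 TPM in antennal lobe neuroblasts.

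**Figure D3:**
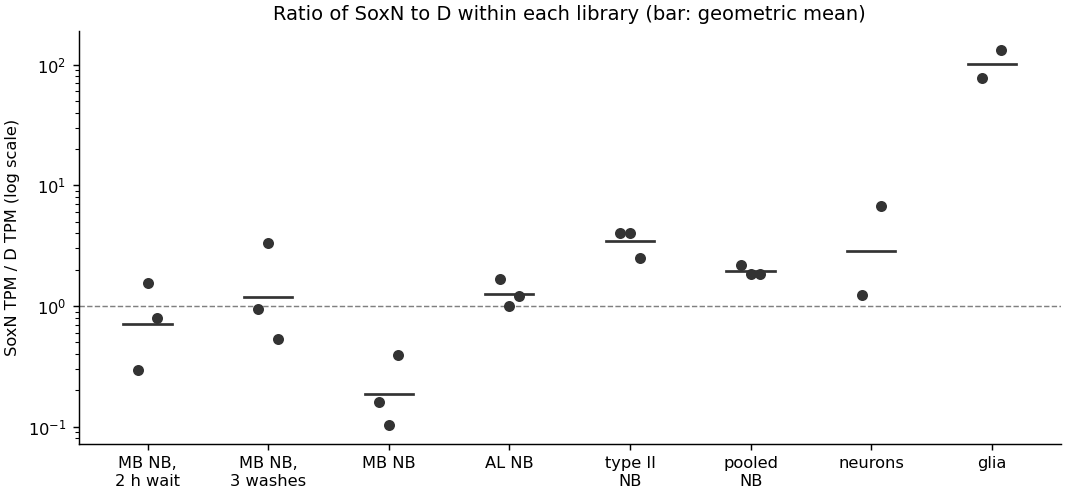
Ratio of SoxN to D in TPM within each library, on a log axis, with the geometric mean of each group as a bar and the dashed line at a ratio of 1. The MB neuroblast libraries lie between 0.104 and 0.391, the AL neuroblast libraries between 1.01 and 1.68, and the glia libraries at 77.9 and 132.

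Ordered by group mean in CPM, SoxN ran from glia over antennal lobe neuroblasts, type II neuroblasts, the pool and neurons down to the mushroom body groups. Neighbours in this order did not overlap except the mushroom body groups with washes and with a wait. In TPM, glia (292 and 358 TPM) and antennal lobe neuroblasts (309, 315 and 282 TPM) did overlap. Per cell on the ERCC scale, type II neuroblasts stood first with a mean of 2.39 and a highest library of 3.69, and their libraries overlapped those of antennal lobe neuroblasts, at 1.51. That highest value was in type II library 1, while libraries 2 and 3 stood at 1.86 and 1.61. ERCC made up 0.120% of gene and ERCC counts in type II library 1, against 0.345 and 0.394% in libraries 2 and 3. For D the order in CPM was antennal lobe neuroblasts, the pool, type II neuroblasts and neurons, followed by the 3 mushroom body groups and glia, which overlapped their neighbours.

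Sox21a and Sox21b were near the detection limit in most libraries. Sox21a had 61 and 0 counts in neurons, 8, 31 and 0 in antennal lobe neuroblasts, and 3, 0 and 0 in type II neuroblasts. It had no counts in mushroom body neuroblasts, the pool or glia, where 3 counts would correspond to 0.330 to 0.847 CPM per library. Sox21b had 123 and 0 counts in neurons, 12 and 1 in glia, 15, 32 and 7 in antennal lobe neuroblasts, and 2, 1 and 1 in type II neuroblasts. It had 0, 2 and 1 counts in mushroom body neuroblasts and none in the pool. The intervals and limits from counts cover counting error only, since the reads carry no molecular identifiers. Sox21a passed the filter on low counts in no fit, and Sox21b only in the fit of cell types.

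Neuron library 1 held the highest level of both genes, with 17.0 CPM of Sox21a (95% exact Poisson interval 13.0 to 21.8) and 34.2 CPM of Sox21b (28.4 to 40.8). Neuron library 2 had no count of either, so the level in neurons rests on a single library. Sox21b gave an adjusted p of 0.0595 between the pool and neurons, 0.179 between the pool and glia and 0.336 between neurons and glia (edgeR quasi-likelihood), and no call. It passed between the pool and neurons in 4 of 13 alternatives, with adjusted p of 0.00239 with all 22 libraries in a single fit, 0.00377 in DESeq2, 0.0245 without the filter on low counts and 0.0279 without neuron library 2. Each of these rests on the counts of neuron library 1. Between the pool and glia it passed in 1 of 14, with all 22 libraries (adjusted p = 0.0356). In the antennal lobe libraries, Sox21a was at 1.08, 4.37 and 0 CPM and Sox21b at 2.03, 4.51 and 0.871 CPM. Among the other neuroblast libraries both genes reached their highest level in library 3 of the group with a wait, at 1.06 CPM of Sox21a and 1.49 CPM of Sox21b.

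**Figure D4:**
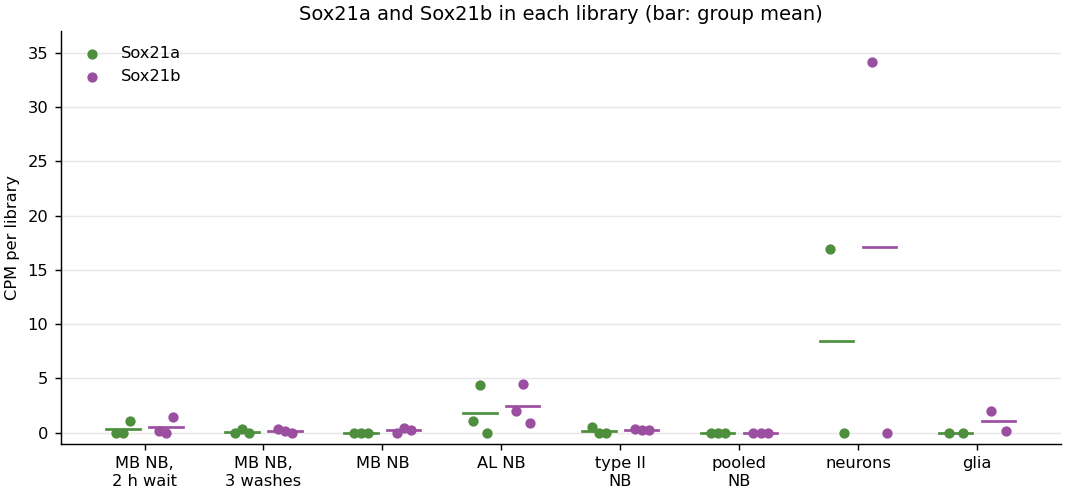
Sox21a (green) and Sox21b (purple) in each library, in CPM on a linear axis, with the mean of each group as a bar. A single neuron library stands at 17.0 and 34.2 CPM, and in the AL neuroblast libraries the genes reach 4.37 and 4.51 CPM.

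The genes of the cluster on 3L were not alike in level. D averaged 288 CPM in antennal lobe neuroblasts, where Sox21a averaged 1.82 and Sox21b 2.47 CPM. In the pool D averaged 100 CPM and both neighbours had no count. Over the 8 group means of log2(CPM + 1), Sox21a and Sox21b correlated at 0.947, SoxN and D at 0.630, D and Sox21a at 0.326, and D and Sox21b at 0.215. These are descriptions over 8 points. The value for Sox21a and Sox21b includes neuron library 1. Of the genes that flank the cluster, CG8100 averaged 1.73 CPM and Fbp1 0.663 CPM in antennal lobe neuroblasts on the side of Sox21a, and CG32141 averaged 0.0470 CPM on the side of D.

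The mushroom body groups labelled with a wait and with washes were set beside the group with neither label. The conditions of the wait and the washes are not given, so handling and other differences between these groups cannot be told apart. SoxN was 5.56, 5.10 and 11.3 CPM after the wait and 5.22, 13.6 and 5.88 CPM after the washes, against 1.69, 0.943 and 3.20 CPM in mushroom body neuroblasts without either. All 6 handled libraries lay above the 3 others. The log2 change was 1.88 ± 0.72 after the wait (edgeR adjusted p = 0.461) and 2.03 ± 0.72 after the washes (edgeR adjusted p = 0.322), so neither passed. Of 8766 genes, 0.0228% were called after the wait, all lower, and 0.833% after the washes, 0.160% higher and 0.673% lower. After the washes SoxN passed with ERCC counts per cell (2.78, adjusted p = 0.00837), a scale that moved the median of all genes to 0.77.

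Markers of antennal lobe neuroblasts, in which SoxN is high, were also measured in these libraries. Their summed level was 4.93 to 8.54 CPM after the wait and 6.67 to 8.24 CPM after the washes, against 3.66 to 8.47 CPM in mushroom body neuroblasts, so the ranges overlapped. Of the 4 markers, mid averaged 1.99 CPM after the wait and 1.66 CPM after the washes, against 0.267 CPM without either, and ems averaged 2.43, 0.995 and 0.570 CPM in the same groups. The markers did not move together. Dr averaged 0.713 CPM after the wait and 1.98 CPM after the washes, against 1.40 CPM without either. The remaining marker, acj6, had a lower mean after the wait and after the washes than without either. The summed level thus combines mid and ems, with higher means in both handled groups, with acj6, which was lower in both. SoxN was also high in glia and type II neuroblasts. Summed glia markers were 427 to 573 CPM after the wait and 327 to 531 CPM after the washes, against 471 to 487 CPM without either. Summed type II markers were 18.3 to 36.0 CPM after the wait and 35.9 to 54.2 CPM after the washes, against 24.5 to 52.4 CPM without either. The part of any of these cells or their RNA in the SoxN values was not tested. D was 13.7, 2.38 and 10.2 CPM after the wait and 4.04, 3.00 and 8.0 CPM after the washes, against 7.62, 6.60 and 5.95 CPM without either, and the groups overlapped. Its log2 change was 0.37 ± 0.65 after the wait (edgeR adjusted p = 0.927) and -0.44 ± 0.65 after the washes (edgeR adjusted p = 0.950).

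The genes most like each member were taken by Pearson correlation over the 8 group means of log2(CPM + 1), among 8238 genes. Likeness is given as a description without a test, and group means of a gene share their libraries with those of the member. For SoxN the leading gene was ct (cut, a homeodomain transcription factor), with r = 0.987, followed by tan, eIF4G2, CG5262 and coro at 0.954 to 0.930. The level of ct was 28.5, 12.5 and 23.6 CPM in mushroom body neuroblasts, against 950, 772 and 782 CPM in antennal lobe neuroblasts. It averaged 686 CPM in type II neuroblasts, 564 CPM in the pool, 435 CPM in neurons and 1202 CPM in glia. Like SoxN, ct was lowest in the mushroom body groups and highest in glia, while the other 4 genes varied far less, as in tan, with 26.7 CPM in mushroom body neuroblasts and 58.1 CPM in glia.

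For D the leading gene was otk (off-track, a transmembrane protein related to receptor tyrosine kinases), with r = 0.972, followed by CG8964, hrg, Paf-AHalpha and uex at 0.966 to 0.925. The level of otk was 34.7, 16.0 and 21.7 CPM in mushroom body neuroblasts, against 269, 292 and 336 CPM in antennal lobe neuroblasts. It averaged 89.7 CPM in type II neuroblasts and 123 CPM in the pool. In glia otk was uneven, at 68.5 and 7.72 CPM. The genes most like Sox21a were CG6184, CG3402, vav, CG30419 and caup (r = 0.979 to 0.966), and those most like Sox21b were CG32450, mam, UBL3, H15 and TpnC73F (r = 0.966 to 0.950). Since neuron library 1 sets the profile of Sox21a and Sox21b, these 10 genes were selected for a high neuron mean.

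Of the 4 other Sox genes, Sox14, a target of the steroid hormone ecdysone, was high in glia, with 24.1 ± 4.38 CPM in the pool (SD, n = 3) and 354 and 379 CPM in glia. The change was -3.97 ± 0.41 on the log2 scale (edgeR adjusted p = 0.000337), and between neurons and glia it was -4.20 ± 0.49 (edgeR adjusted p = 0.000717). In those comparisons 1 of 3 and 2 of 3 other Sox genes tested were called, all lower outside glia, the second being Sox15, where 13.6% and 10.8% of all genes were lower. Sox15 was uneven in glia, at 2.89 to 31.3 CPM, and at 0 CPM in neurons. Between the pool and glia it did not pass (edgeR adjusted p = 0.119). Sox102F, the SoxD member, was lower in type II neuroblasts, with 1.29 to 1.57 CPM, against 6.92 to 12.6 CPM in the pool (log2 change -2.67 ± 0.63, edgeR adjusted p = 0.00952). It was the only call among 3 tested, with 5.92% of all genes called. Antennal lobe neuroblasts against type II neuroblasts gave 2 calls of 3, both higher, and mushroom body neuroblasts against type II neuroblasts likewise gave 2 of 3, both higher: Sox102F and Sox15. Of all genes, 6.08% and 5.63% were called higher in these comparisons. Sox100B was tested only in the fit of mushroom body groups.

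The temporal factors, which act in series with D in optic lobe neuroblasts and intermediate progenitors, split in mushroom body neuroblasts. Against antennal lobe neuroblasts, 3 of 8 were higher and 3 lower, where 5.88% of all genes were higher and 5.96% lower, with a list median of -0.09 on the log2 scale beside 0.03 for all genes. The orphan nuclear receptor gene tll had 289 ± 42.3 CPM in mushroom body neuroblasts and 2.70 ± 0.263 CPM in antennal lobe neuroblasts (log2 change 6.74 ± 0.22, edgeR adjusted p = 2.29e-17), the reverse of SoxN and D. The homeobox gene hth fell with SoxN and D, with 57.2 ± 22.7 CPM in mushroom body neuroblasts and 1987 ± 266 CPM in antennal lobe neuroblasts (log2 change -5.10 ± 0.26, edgeR adjusted p = 4.11e-09). The forkhead genes slp1 and slp2, which precede D in the optic lobe series, also fell: slp2 had 0.941 CPM in mushroom body neuroblasts and 174 CPM in antennal lobe neuroblasts, and slp1 had 0.0763 and 44.6 CPM in the same order. The Zic family gene opa was at 208 to 266 CPM in mushroom body neuroblasts, against 4.93 to 13.4 CPM in antennal lobe neuroblasts.

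Against type II neuroblasts, 2 of 8 temporal factors were higher and 3 lower in mushroom body neuroblasts, and against the pool 3 were higher and 3 lower. The share of all genes called in either direction was 10.4% against type II neuroblasts and 14.4% against the pool. The same forkhead genes and hth made up the lower calls in both. The higher calls in both, and against antennal lobe neuroblasts, included ey, which was among the mushroom body markers listed above. In antennal lobe neuroblasts, 4 were higher and 1 lower against type II neuroblasts, and 3 were higher and 2 lower against the pool. In these comparisons 11.4% and 17.0% of all genes were called. The genes hth, slp2 and grh were higher in both, as D was. In type II neuroblasts against the pool, tll was higher (1.19 ± 0.16, edgeR adjusted p = 2.58e-05) and opa lower (-4.49 ± 0.80, edgeR adjusted p = 0.00977), and the remaining 6 did not pass, beside 5.92% of all genes called. In the pool, tll and grh were higher against both neurons and glia, and hth was lower against neurons. Between neurons and glia, hth was higher in neurons and tll and grh lower, with levels of tll below 4 CPM in both groups. Of all genes, 24.7% were called between the pool and neurons, 20.6% between the pool and glia and 20.1% between neurons and glia.

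**Figure D5:**
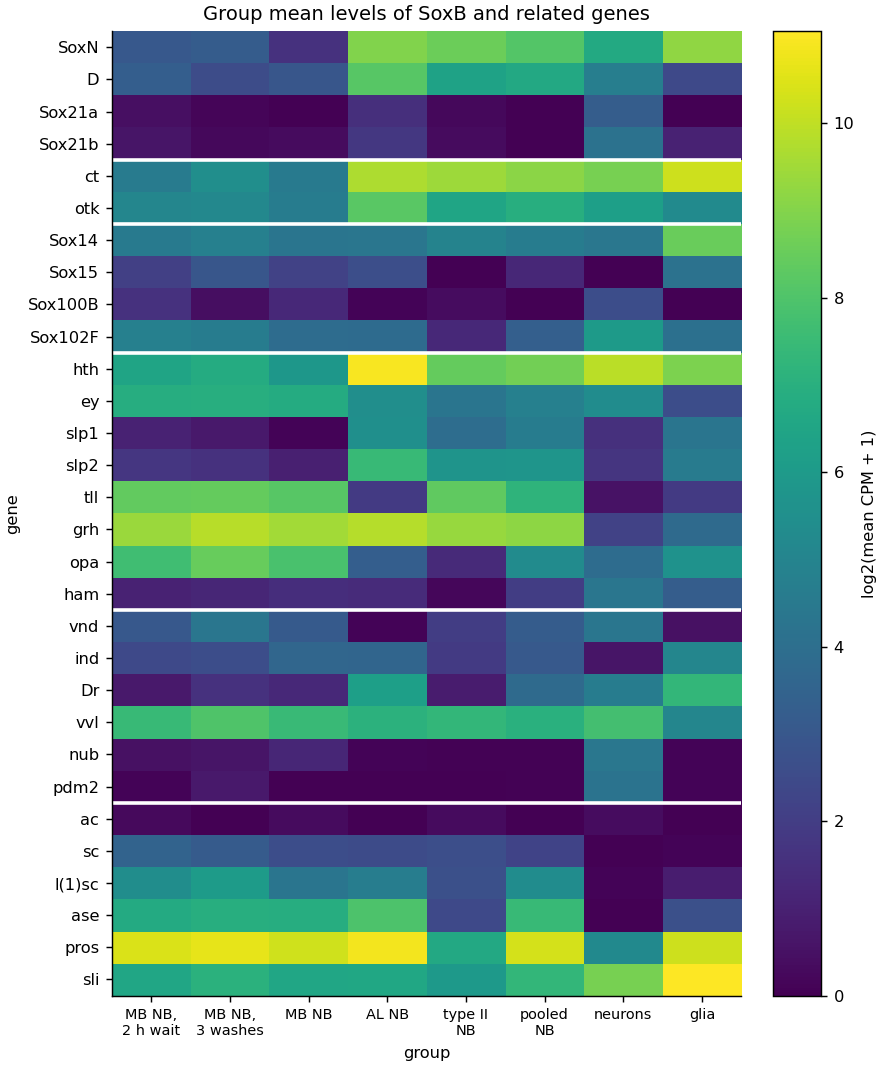
Group mean levels as log2(mean CPM + 1), with the SoxB genes on top, then ct and otk, the other Sox genes, the temporal factors, the dorsoventral and POU factors, and the proneural and fate genes, separated by white lines. SoxN, D, ct, otk, hth, slp1 and slp2 are darker in the MB groups than in AL neuroblasts, whereas tll and opa are brighter.

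Among the dorsoventral and POU factors, homeodomain proteins that act beside SoxB proteins in the embryonic nerve cord, 1 of 4 tested was higher and 1 lower in mushroom body neuroblasts against antennal lobe neuroblasts, beside 5.88% and 5.96% of all genes. Dr (msh) was lower, with 1.18 to 1.60 CPM in mushroom body neuroblasts and 55.2 to 86.8 CPM in antennal lobe neuroblasts (log2 change -5.70 ± 0.46, edgeR adjusted p = 2.56e-09), and vnd was higher, with 3.67 to 10.8 and 0 to 0.271 CPM in the same order. Dr was among the markers of antennal lobe neuroblasts listed above. It was lower against the pool too in mushroom body and in type II neuroblasts, at 1 call of 4 each, and higher in antennal lobe neuroblasts, where vnd was lower. Of all genes, 14.4% were called against the pool in mushroom body, 5.92% in type II and 17.0% in antennal lobe neuroblasts. Antennal lobe against type II neuroblasts gave Dr higher and vnd lower, with 11.4% of all genes called. Mushroom body against type II neuroblasts gave 0 calls of 4 with edgeR, with 1 at an unadjusted p below 0.05, and 0 calls with DESeq2, beside 10.4% of all genes called with edgeR.

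Of 6 tested in the cell types, nub and pdm2 were lower in the pool than in neurons, vvl was higher and Dr lower in the pool than in glia, and vnd, vvl and nub were higher in neurons than in glia. The shares of all genes called were 24.7%, 20.6% and 20.1% in this order of comparisons. The POU gene nub reached at most 0.121 CPM in the pool, against 15.0 and 24.8 CPM in neurons. The POU gene pdm2 reached at most 0.110 CPM in the pool, against 3.23 and 31.7 CPM in neurons.

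Among the proneural and fate genes, several of which SoxB proteins bind or regulate in the embryo, 4 of 5 tested were lower in type II neuroblasts than in the pool, in a comparison with 2.21% of genes lower: ase by -5.27 ± 0.25, pros by -3.69 ± 0.22, l(1)sc by -2.86 ± 0.53 and sli by -1.38 ± 0.22 on the log2 scale (edgeR adjusted p from 2.20e-13 to 0.00165), with a list median of -2.86 beside -0.02 for all genes. The fifth, the proneural gene sc, averaged 5.27 CPM in type II neuroblasts and 3.67 CPM in the pool (log2 difference 0.54, edgeR adjusted p = 0.764). Low ase is part of the definition of type II neuroblasts. The homeodomain gene pros, which promotes differentiation, stood at 70.4 to 136 CPM in type II neuroblasts, against 1070 to 1545 CPM in the pool, while SoxN and D did not pass in this comparison. In mushroom body neuroblasts against antennal lobe neuroblasts, 1 of 5 was lower, ase by -1.07 ± 0.19 (edgeR adjusted p = 0.000388), and against the pool 2 were lower, ase and sli, where 5.96% and 5.46% of all genes were lower.

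Mushroom body and antennal lobe neuroblasts each had 3 of 5 higher than type II neuroblasts (ase, pros and l(1)sc), and antennal lobe neuroblasts had sli lower than the pool. All genes called higher than in type II neuroblasts were 5.63% for mushroom body and 6.08% for antennal lobe neuroblasts, and 7.02% were lower in antennal lobe neuroblasts than in the pool. In the pool, 3 of 5 were higher and sli lower against neurons, and 2 were higher and sli lower against glia, in which sli, a ligand of the Robo receptors, averaged 2125 CPM. Neurons had ase, pros and sli lower than glia. The share of all genes called in either direction was 24.7% for the pool against neurons, 20.6% for the pool against glia and 20.1% for neurons against glia. After the wait, 0 of 18 tested members of the 4 lists were called with edgeR, 2 had an unadjusted p below 0.05, and DESeq2 called 0, beside 0.0228% of all genes. After the washes 1 of 18 was called, l(1)sc, which was higher (1.82 ± 0.41, edgeR adjusted p = 0.0418), beside 0.833% of all genes.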

How the data were processed

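The deposited table of counts was made by the authors with HTSeq 0.6.1p1, STAR 2.4.0i, Bowtie2 2.1.0, cutadapt 1.7.1 and CASAVA, on the builds dm3 and mm10, per the submitters' processing notes, in which the part played by mm10 is not given. The deposited TPM table is the authors' length-scaled version of it. Positions come from the authors' annotation columns (dm3). ERCC entries and unassigned reads stayed out of library sizes and tests. No-feature reads were 7.92 to 23.8% and ambiguous reads 1.03 to 1.76% of counts, and an unnamed entry held at most 17 counts. The sources used here do not give the strand setting of the counting. The genes CR41602 and CR40677 held 10.1 to 31.9% of gene counts.

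The test was edgeR's quasi-likelihood test (version 4.0.16 in R 4.3.3; TMM scaling, filterByExpr, robust), run in 3 fits: pooled neuroblasts, neurons and glia (9855 genes, 4 residual degrees of freedom), the 4 neuroblast groups without wait or washes (9249 genes, 8), and the 3 mushroom body groups (8766 genes, 6). Adjusted p is Benjamini-Hochberg over the genes tested in a comparison, called below 0.05. The SE is the log2 change divided by the root of the F statistic. CPM intervals are 95% exact Poisson. In simulated counts, 100 genes were changed by 2 log2 units and 100 by 4. Of those changed by 2, 14% were recovered between the pool and neurons (9855 genes). Between mushroom body and antennal lobe neuroblasts 88% were recovered (9249 genes). In the data 2438 genes were called between the pool and neurons. With fewer changed genes the adjustment is stricter, so the simulated shares do not give the recovery in these data. Alternatives were RLE scaling, ERCC counts per cell, no filter, DESeq2 1.42.0, limma 3.58.1 on log2(TPM + 1) and log2(TPM + 0.1), all 22 libraries in 1 fit, the replicate number as a block, leaving out each library, and, chosen after seeing the data, leaving out CR41602 and CR40677. All 231 pairs of libraries differed by more than sampling noise (chi-square over degrees of freedom of at least 10.5).

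The SoxB genes and the 4 lists (24 genes) were chosen with earlier results of these data known. As a rule, up to 4 called members of a list with the largest change were named per comparison. Departures were among the temporal factors. Against antennal lobe neuroblasts tll, hth, slp1, slp2 and opa were all named for mushroom body neuroblasts, and ey was named as a shared marker. For each SoxB gene the 5 most correlated genes with at least 10 CPM in the highest group were named. Genes flanking the cluster were added after their values were seen.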

Additional observations from a re-analysis of the deposited data

How the results depend on the processing

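Over all alternatives, 359 values of single SoxB genes were recomputed: 316 kept their direction and side of the threshold, 24 lost a call, 14 gained one and 5 turned direction. The calls of SoxN and D in mushroom body neuroblasts against antennal lobe neuroblasts, type II neuroblasts and the pool held in all 15 alternatives each, and so did D in the pool against glia in all 14. Direction turned for D after the wait on leaving out a library (-0.12 to 0.82, the lowest without wait library 1), and with ERCC counts per cell for D after the washes (0.31), D in type II neuroblasts against the pool (0.40), SoxN in antennal lobe against type II neuroblasts (-0.66) and SoxN in the pool against glia (2.35). That scale moved the median of all genes to 1.94 (pool against neurons), 3.45 (pool against glia), 1.52 (neurons against glia), -1.44 (mushroom body against type II), -1.06 (antennal lobe against type II), 0.78 (type II against the pool) and 0.77 (after the washes), and D stood below the median in the last 2 of these. The cause of the other changes was not tested. Type II library 1, which enters the type II values on the ERCC scale, had the lowest ERCC share of all libraries, at 0.120%. Same-numbered residuals correlated at -0.07 to 0.11, above 0.1 in 1 of 33 pairs. Where a group has 2 libraries, their residuals mirror each other, so the pairs are not all separate checks. The sources used here do not state whether replicate numbers pair the libraries, and these correlations cannot exclude it.

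The number of SoxB genes called in antennal lobe neuroblasts against the pool was 2, and 1 with all 22 libraries, 0 with ERCC and 1 with limma on log2(TPM + 0.1). Against type II neuroblasts it was 1, and 0 with ERCC. In the pool against glia it was 1, but 3 with all 22 libraries and 2 with DESeq2, ERCC, RLE or no filter. Against neurons it was 2, but 1 with limma on log2(TPM + 0.1), 0 with the replicate block, 0 with RLE and 0 to 2 on leaving out a library. In neurons against glia it was 2, but 1 with ERCC, 1 with the block and 1 to 2 on leaving out a library. After the washes it was 1 with ERCC in place of 0, and in type II neuroblasts against the pool 1 with DESeq2, ERCC or no filter and 0 to 1 on leaving out a library.

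Counts of all genes called moved as follows. With all 22 libraries in 1 fit they were 338 in mushroom body against antennal lobe neuroblasts, 324 against type II and 493 against the pool, 237 in antennal lobe against type II and 396 against the pool, 140 in type II against the pool, 4687 in the pool against neurons, 4731 against glia and 4618 in neurons against glia, and 0 after the wait and 2 after the washes. With ERCC they were 282 in mushroom body against antennal lobe neuroblasts and 5279 against type II, 3279 in antennal lobe against type II and 461 against the pool, 1102 in type II against the pool, 4129 in the pool against neurons, 5897 against glia and 3254 in neurons against glia, and 4 after the wait and 2134 after the washes. DESeq2 called 3327 in the pool against glia, 3351 in neurons against glia, 36 after the wait and 136 after the washes. Without the filter they were 59 after the wait and 134 after the washes, and limma on either TPM scale called 0 in both (2 and 73 with edgeR). The replicate block gave 788 in the pool against glia, 1346 against neurons, 1194 in neurons against glia and 40 after the washes.

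Leaving out a library gave 649 to 889 in mushroom body against antennal lobe neuroblasts, 577 to 796 against type II and 862 to 1080 against the pool; 582 to 961 in antennal lobe against type II and 958 to 1454 against the pool; 317 to 501 in type II against the pool; 1394 to 2641 in the pool against neurons and 836 to 2012 against glia; 2 to 6 after the wait and 6 to 94 after the washes. Where a neuron or glia library was left out, the lone library of that group was assumed to vary like the others. Depth limits Sox21a and Sox21b most: 3 counts stood for 0.198 to 0.847 CPM per library.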
